A study of Mus musculus with 2 samples.

Results

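miR-183, miR-96 and miR-182 form a cluster of 3 microRNAs (miRNAs, short RNAs that hold down the messenger RNAs they pair with), and their signals were read in microvesicles shed by fat cells of the mouse line 3T3-L1. The members were taken by name, as the array entries mmu-miR-183, mmu-miR-96 and mmu-miR-182, which are 3 of the 567 mouse miRNAs on the array and hold 6 of its 1672 mouse probes. They had been picked with their large differences between the arrays already known, so the differences below are a description and carry no test. The vesicles came from medium left on the cells for 48 h, in an early window (day 2-4) and a late one (day 8-10), and each window was measured on 1 single-colour Agilent array with 100 ng of total RNA. Both groups are the same preadipocyte line in culture medium with 10% fetal calf serum, turned into adipocytes with dexamethasone (0.25 µM), insulin (10 µg/ml) and the phosphodiesterase inhibitor 3-isobutyl-1-methylxanthine (0.5 mM), and no undifferentiated cells or serum alone were analysed here. With 1 array per window, the window and the handling of its single sample cannot be told apart, and no p-value is given. Fewer vesicles and less miRNA per vesicle cannot be told apart either, since a fixed mass of RNA was labelled.

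The 3 miRNAs are cut from neighbouring hairpins that are read from the same strand as a shared primary transcript, and such polycistronic members often appear together in a tissue. The cluster is best known from sensory organs, where it is abundant in retinal photoreceptors and in hair cells of the inner ear, and from epithelial tissues and their tumours. In the insulin and fat-cell field, the members are known as repressors of Foxo1, a transcription factor that insulin restrains. miR-183 has been described as promoting adipogenesis in 3T3-L1 cells, and miR-182 as acting in brown fat differentiation.

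The mature sequences show why the members are usually treated as a family. They are given 5′ to 3′ from RefSeq (GRCm38.p6), with the seed, bases 2 to 8, in capitals, because the seed does most of the target recognition.
miR-183: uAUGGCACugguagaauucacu
miR-96: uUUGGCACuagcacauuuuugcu
miR-182: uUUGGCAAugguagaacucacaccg
All share bases 3 to 7 of the seed. Counted from 1 at the 5′ end, the seeds of miR-96 and miR-183 differ by U2A and those of miR-96 and miR-182 by C8A, so each member has a seed of its own. Compared base by base from the 5′ end, seed included, miR-183 and miR-182 are the closest pair, with 18 of 22 bases in common and a shared run of 8 bases (UGGUAGAA) at bases 9 to 16, whereas miR-96 matches miR-183 at 13 of 22 bases. Among 1679 mature mouse miRNAs in the RefSeq table, the seed of miR-96 recurs only in miR-1271-5p, which was not among the array's entries under that name. The seeds of miR-183 and miR-182 recur in none.

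On GRCm38.p6 the mature forms lie on the minus strand of chromosome 6, miR-183 at chr6:30169711-30169732, miR-96 at chr6:30169506-30169528 and miR-182 at chr6:30165962-30165986. Their hairpins span 3820 bases in all. The hairpins of miR-183 and miR-96 are 116 bases apart, and 3453 bases separate miR-96 from miR-182. All of them fall inside Mirc35hg, a long noncoding RNA gene at chr6:30158640-30174125.

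Each member was read by 2 probes whose position intervals in the files share 1 end and differ in length by 1 base, with 10 spots per probe on each array. The intervals measure 18 and 19 bases for miR-183, 21 and 22 bases for miR-96, and 15 and 16 bases for miR-182. The sources used here name no build for these positions, but the shared ends are spaced as in RefSeq, 3544 bases from miR-182 to miR-96 and 205 bases from miR-96 to miR-183. If the shared end is the 3′ end of the mature form, as this spacing has it, the longer probe of each entry reads the bases in capitals here, shown because the members differ in how much of the seed is read.
miR-183: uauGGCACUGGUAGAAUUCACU
miR-96: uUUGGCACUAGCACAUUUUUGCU
miR-182: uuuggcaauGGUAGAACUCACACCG
On that reading, the probes of miR-96 cover nearly the whole molecule, from base 2 or base 3 onward. Those of miR-183 start at base 4 or base 5, inside the seed, and those of miR-182 start at base 10 or base 11, past the seed. Most of the run shared by miR-183 and miR-182 lies within the probes of both, and how much signal one adds to the other was not tested.

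Every member gave a brighter signal in the late vesicles. In the scanner's processed intensity, from which a background surface fitted over the array had been subtracted, the shorter probe of miR-183 read from 4.38 to 7.42 at day 2-4 (median 6.11 over 10 spots) and from 34.5 to 39.2 at day 8-10 (median 35.8). Its longer probe read from 18.0 to 23.6 at day 2-4 (median 20.8) and from 93.4 to 118 at day 8-10 (median 114). On both probes each late spot was above each early spot, with the lowest late spot 4.64 times the highest early spot on the shorter probe and 3.95 times on the longer one. These spots are repeat readings of the same labelled RNA, so their spread is technical.

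miR-96 showed the same pattern, with an early signal dimmer than that of miR-183 on the longer probe but not on the shorter one. Its shorter probe read from 4.52 to 9.06 at day 2-4 (median 6.90) and from 63.7 to 71.7 at day 8-10 (median 68.2). Its longer probe read from 11.1 to 14.9 at day 2-4 (median 12.9) and from 101 to 117 at day 8-10 (median 109). The lowest late spot was 7.03 times the highest early spot on the shorter probe and 6.78 times on the longer probe, again with no overlap.

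miR-182 was the dimmest member, and its probes differed widely in signal. The longer probe read from 2.80 to 6.48 at day 2-4 (median 4.78) and from 54.4 to 76.0 at day 8-10 (median 64.4). The shorter probe read from -1.20 to 3.86 at day 2-4 (median 0.0355) and from 4.79 to 6.82 at day 8-10 (median 5.74). Late spots lay above early spots on both probes, by a wide margin on the longer and narrowly on the shorter, where the lowest late spot was 1.24 times the highest early one.

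**Figure D1:**
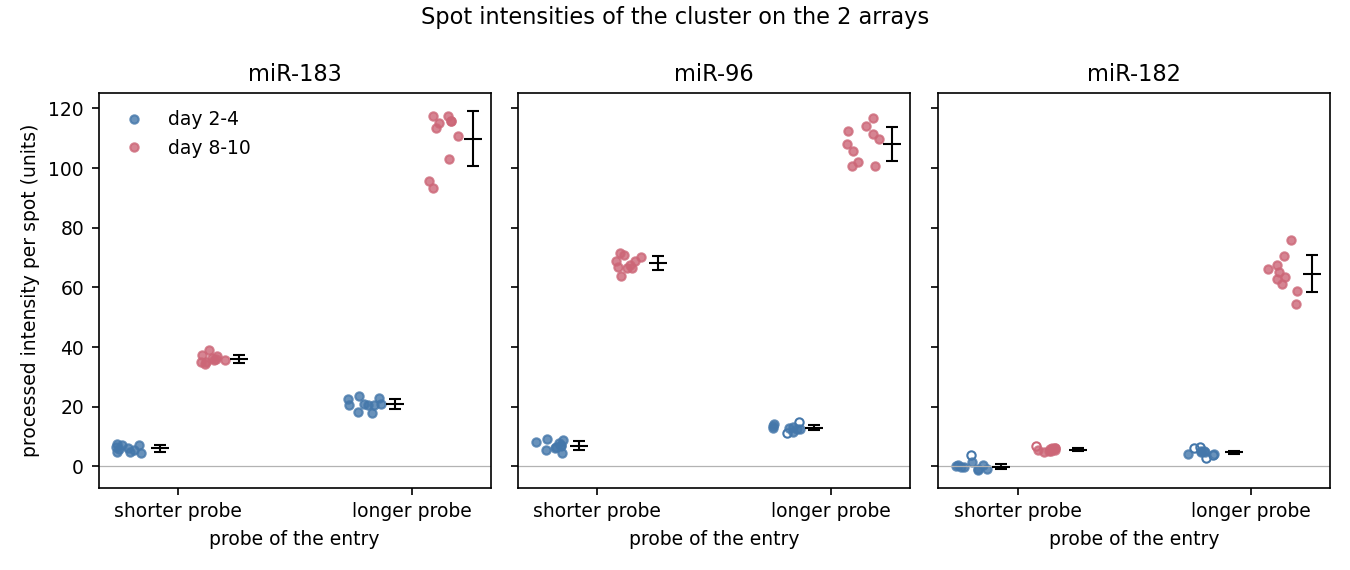
Processed intensity of each spot (units of the scanner software, not scaled between arrays) for the shorter and longer probe of miR-183, miR-96 and miR-182, 10 spots per probe on the day 2-4 array (blue) and the day 8-10 array (red). Open circles are spots the software marked as outliers, and black bars are the mean ± SD of the others; late spots lie above early spots for every probe, and the shorter probe of miR-182 stays below 10 units on both arrays.

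A probe counted as detected when more than 0.5 of its spots, outliers left out, were well above background by the software's flag. At day 8-10 all 6 probes were detected. At day 2-4 both probes of miR-96 were detected, with 9 of 10 spots well above background on the shorter one and 8 of 8 on the longer one. Both probes of miR-183 were detected too, with 7 of 10 and 10 of 10 spots. Neither probe of miR-182 was detected at day 2-4: none of 9 spots of the shorter probe and 1 of 6 spots of the longer probe were well above background. The software marked 4 of the 10 early spots of that longer probe as outliers, and with these kept 3 of 10 were well above background, still below the limit.

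Negative control spots give the level of an empty signal. On the day 2-4 array 660 such spots read from -3.21 to 2.70 (SD 0.983), and on the day 8-10 array 656 spots read from -3.13 to 2.83 (SD 1.02). The longer probe of miR-182, although not detected at day 2-4, had a mean of 4.67 ± 0.466 (SD, n = 6 spots) there, above every one of those 660 control spots. The shorter probe had a mean of -0.0903 ± 0.789 (SD, n = 9 spots), which 289 of the 660 control spots reached or passed. The scanner software's own gene flag, which uses a rule of its own, called all 3 members detected on both arrays, and its gene signal for miR-182 went from 3.03 to 46.8.

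After scaling the arrays to each other, the log2 difference, late minus early, was 3.37 for miR-96 with a spot SE of 0.0514, or 10.4-fold brighter. For miR-183 it was 2.68 with a spot SE of 0.0477, or 6.40-fold brighter. The probes of each entry were close together: 3.49 and 3.26 (log2 differences of the shorter and the longer probe) for miR-96, and 2.78 and 2.58 for miR-183. The average over both probes, on the scaled intensity, was 9.42 at day 2-4 and 97.6 at day 8-10 for miR-96, and 11.2 and 71.5 for miR-183. Of 156 miRNAs detected at day 2-4 and 166 at day 8-10, all but 11 and 21 were detected in both windows. Among those measured in both, 23 were at least 2-fold higher at day 8-10, or 15.9%, and 11 were at least 2-fold lower, or 7.59%, and miR-96 and miR-183 ranked 1 and 3 by size, or 1 to 3 and 3 to 6 over the other settings. Since the members were picked by this contrast, nothing is read from their share. Over all miRNAs measured in both windows the log2 difference ran from -2.62 to 3.37 with a median of 0.20.

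For miR-182 only a lower bound of the fold can be given, because its early signal was not well above background. Dim values were set to the signal of the lowest detected probe, 4.86 at day 2-4 and 6.32 at day 8-10 after scaling. On that basis the value for miR-182 was 4.48-fold brighter at day 8-10, as the average of its 2 probes. The longer probe alone gave at least 14.8-fold (log2 difference 3.89), and the shorter probe gave 1.35-fold (0.43). Some late spots of the shorter probe were raised too, so its value is not a strict bound, nor is the average. Bounds of other miRNAs were made in the same way. The shorter probe was below the limit at day 2-4, with a mean of -0.0903, and near it at day 8-10, with a scaled mean of 6.36. With dim spots raised to the limits, its difference was close to the log2 ratio of the limits themselves, 0.38. With the 75th percentile over all probes it was -0.07. Over all 16 other settings it ran from -0.08 to 3.12, and it was below 2-fold in 13 of them. The size of the bound therefore rests on 1 of the 2 probes. Of the 21 miRNAs detected at day 8-10 only, 8, or 38.1%, had a bound of at least 2-fold.

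**Figure D2:**
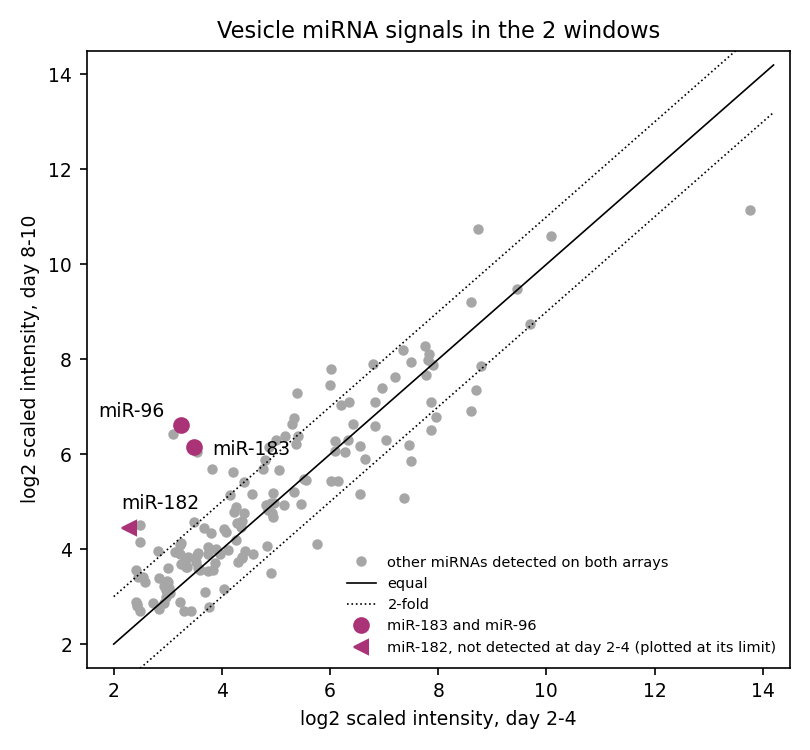
Log2 scaled intensity at day 2-4 (x axis) and day 8-10 (y axis) for the miRNAs detected on both arrays (grey, with miR-183 and miR-96 as purple circles) and for miR-182 (purple triangle at its day 2-4 limit). The solid line marks equal signal and the dotted lines 2-fold; miR-96, miR-183 and miR-182 all lie above the upper dotted line, at the dim end of the day 2-4 axis.

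A model-based background correction changed the size of these differences more than any scaling of the arrays. Raw spot means at day 2-4 were close to the local background, with medians of 51.2 and 66.0 on the probes of miR-183 against about 43.0 around the spots, and 52.2 and 58.4 on those of miR-96. With normexp, a correction used here with an offset of 50 that pulls dim signals together, the log2 difference was 1.24 for miR-96, 0.96 for miR-183 and 0.63 for miR-182, so miR-183 and miR-182 no longer reached 2-fold. Subtraction of the local background gave 3.04, 2.40 and 1.94 in the same order. Other scalings moved all miRNAs together: with the 75th percentile over all probes the median over the miRNAs measured in both windows shifted by -0.51. Relative to that median, miR-96 was at 3.17 and miR-183 at 2.47 on the log2 scale in the main setting. The values were the same under this scaling, without scaling and with scaling to the median. Each of these multiplies a whole array by 1 factor, so the sameness follows from the calculation.

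The longer probe was the brighter one for each member, but by very different factors. At day 8-10 it read 3.04 times the shorter probe for miR-183, 1.59 times for miR-96 and 11.6 times for miR-182. At day 2-4 the ratios were 3.49 for miR-183 and 1.85 for miR-96. Another 73 miRNAs had 2 probes 1 base apart that were detected on both arrays. Their ratio at day 8-10 ran from 0.0449 to 7.23 with a median of 0.720, the longer probe was brighter for 32 of them, and none reached the ratio of miR-182. miR-182 itself did not pass this filter, which leaves out pairs with an undetected probe, so nothing is read from that. In the 73 entries the log2 differences of the 2 probes were a median of 0.06 and at most 0.53 apart, against 0.24 for miR-96, a gap that 5 of the 73 reached, and 0.20 for miR-183. For miR-182 the gap was 3.45, with dim spots of the shorter probe raised to the limits.

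The opposite strand of the miR-183 hairpin, miR-183*, had an entry of its own with 4 probes of 5 spots, and it was not detected on either array. This strand is usually the one that is discarded. On the brightest of these probes the spots read from 0.515 to 2.37 at day 2-4 (mean 1.49) and from 2.84 to 5.59 at day 8-10 (mean 3.81), and 1 late spot was well above background. The late mean lay above every one of the 656 negative control spots, while 23 of 660 control spots reached the early mean. The other 3 probes had late means between -0.164 and 1.86, each reached by 15 or more control spots. No fold is given, since both sides were below the limit.

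Neighbours in other miRNA clusters were read beside the members, as a description of how alike members of 1 transcript look on these arrays. From 28 listed clusters, 17 had at least 2 members detected on both arrays; some share an entry, such as miR-24, miR-16, miR-30c or miR-29b, which the array cannot assign to 1 locus. The log2 differences of miR-183 and miR-96 were 0.69 apart. Both had been chosen for a large difference, and miR-182, with a bound only, is left out of this gap. Several other clusters have 3 members measured, which can widen their range, so nothing is read from the comparison. Within the 17 clusters the members were between 0.06 and 1.65 apart, with a median of 0.74, and 6 of the 17 were as close as or closer than miR-183 and miR-96. In 10 of the 17 the members had differences of opposite sign in the main setting. Some of these signs rest on values near 0, such as -0.03 for miR-23b (spot SE 0.0482) and -0.04 for let-7a. They also depend on the scaling, since the 75th percentile over all probes shifted the median of all miRNAs by -0.51. In 2 of the 17 clusters all detected members were at least 2-fold higher, miR-29c with miR-29b (1.87 and 2.50) and miR-30e with miR-30c (1.09 and 1.03). miR-30c fell short of 2-fold under 10 of 18 other settings, with 0.84 without scaling, and with normexp no cluster of the 17 had all its detected members at least 2-fold higher. The median of a cluster ran from -1.51 for miR-199a with miR-214 to 2.19 for miR-29c/29b, and miR-183 with miR-96, chosen for their difference, had 3.03.

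**Figure D3:**
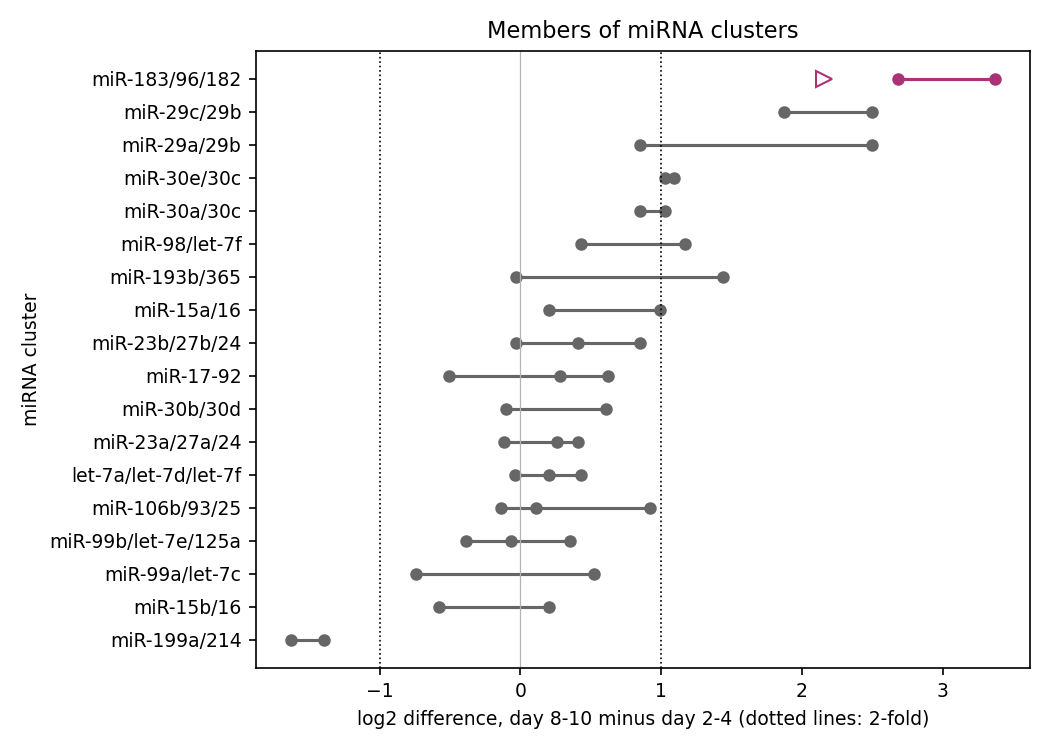
Log2 difference (day 8-10 minus day 2-4) of each member detected on both arrays, for miR-183 and miR-96 (purple) and 17 other miRNA clusters (grey), 1 cluster per row, ordered by median; lines join the lowest and highest member. The open triangle is the bound of miR-182 at 2.16, with dim spots of both arrays raised to the limits, and the dotted lines mark 2-fold; miR-183 and miR-96 lie at 2.68 and 3.37, to the right of the other clusters.

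The entries with the nearest differences, by distance from the 3.03 average of miR-183 and miR-96 over the 2 arrays, were miR-714, miR-29b, miR-706, miR-494 and miR-148a. miR-714 was 10.1-fold brighter at day 8-10, a log2 difference of 3.34 that ran from 1.61 with normexp to 4.98 with summed probe signals, and miR-29b was 5.67-fold brighter on 1 of its 2 probes. miR-706 followed at 4.07-fold on 2 of its 4 probes (log2 difference 2.03, and up to 3.39 under other settings), miR-494 at 4.02-fold and miR-148a at 3.72-fold. With normexp miR-29b (log2 difference 0.88) and miR-706 (0.58) fell short of 2-fold, as miR-183 did. With 1 array per window each miRNA has a single difference, so any miRNA of like size would be named by this measure.

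Other miRNAs known to act on Foxo1 were read beside the members, which had been chosen for their large difference. Of 7 on the list, 4 were detected on both arrays, with none at least 2-fold higher and 1 at least 2-fold lower. Over all miRNAs measured in both windows these shares were 15.9% and 7.59%, and 4 entries are too few to tell from them. The median log2 difference of the 4 was 0.02, against 0.20 over all miRNAs measured in both windows. With the 75th percentile over all probes these medians were -0.49 and -0.30. miR-27a, which also represses the adipogenic regulator Pparg, had 0.26 (spot SE 0.0182), or -0.24 with that scaling, and miR-27b had 0.85 (spot SE 0.0686). The myeloid miR-223 had -0.22 (spot SE 0.104), and miR-370, of the imprinted Dlk1-Dio3 region, was 3.24-fold lower (-1.70, spot SE 0.0516). miR-9, miR-139-5p and miR-135a were not detected on either array.

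Among miRNAs known from brown fat, where miR-182 has a described role, some were higher as well. Of 16 on the list, 9 were detected on both arrays, 4 of them at least 2-fold higher and none at least 2-fold lower, with a median of 0.85. Over all miRNAs measured in both windows 15.9% were at least 2-fold higher, 7.59% were at least 2-fold lower, and the median was 0.20. The brown fat list was chosen with earlier results of these data known, so nothing is read from its share. miR-365 was 2.71-fold higher, and miR-378, which lies in an intron of the coactivator gene Ppargc1b, was 2.53-fold higher. miR-30c was 2.04-fold higher on 1 of its 2 probes, and miR-193 was 2.11-fold higher. With normexp all 4 fell short of 2-fold, with log2 differences from 0.40 for miR-30c to 0.78 for miR-365. So they did with the 75th percentile over all probes, with differences from 0.52 for miR-30c to 0.93 for miR-365. miR-193b, a neighbour of miR-365 in 1 cluster, had -0.03, miR-34a 0.22 (-0.28 with the 75th percentile over all probes), miR-30b 0.61 and miR-328 -0.59. miR-155 and miR-455 were detected at day 2-4 only, and 5 others, with miR-203 and the muscle pair miR-133a and miR-133b among them, on neither array.

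The cluster is also a common marker of epithelial cells, so the other epithelial miRNAs were read beside it. Of 7 on the list, the miR-200 family (miR-200a, miR-200b, miR-200c, miR-141 and miR-429) and miR-203 were detected on neither array. Before scaling, their 12 probes had means from -0.637 to 0.0890 at day 2-4 and from -0.808 to 0.249 at day 8-10, inside the range of the negative controls. miR-205, of stratified epithelia, was detected at day 8-10 only and was at least 3.74-fold brighter there, with its brighter probe at 3.21 and then 23.1 intensity units before scaling. With normexp its log2 difference was 0.41. Summed over the brightest probe of each of the 7 entries, the scaled epithelial signal went from 2.56 to 26.3 intensity units, nearly all of the latter from miR-205, and its part in the cluster's difference was not tested.

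Lists for other cell types, and for adipocytes themselves, were summed in the same scaled units. They were chosen with earlier results of these data known, so nothing is read from their shares. Of 11 neural and retinal entries, a group that includes the retinal miR-124, miR-204 and miR-211, 2 were detected on either array, and their summed signal was 17.8 at day 2-4 and 13.6 at day 8-10. None of 5 muscle entries was detected, with sums of 4.04 and 4.02. Blood-cell entries, which serum also carries, were detected for 4 of 7, with sums of 990 and 1030 and a median log2 difference of 0.04. Nearly all of both sums came from miR-451, at 956 and 866 before scaling, and miR-144, detected at day 8-10 only, was at least 1.57-fold brighter there. Of the adipocyte list 14 of 15 were detected, 9 of 13 measured in both windows had a late signal at least 2-fold above the early one, against 15.9% of all miRNAs measured in both, and the summed signal went from 833 to 2000. With normexp, and with the 75th percentile over all probes, 2 of the 13 were at least 2-fold higher. The adipocyte and brown fat lists overlap: the 4 brown fat miRNAs at least 2-fold higher (miR-193, miR-365, miR-378 and miR-30c) are among these 9. Of the fibroblast and mesenchymal list 10 of 11 entries were detected, with a sum of 2950 at day 2-4 and 2750 at day 8-10. None of the 10 was at least 2-fold higher and 2 were at least 2-fold lower, miR-214 (-1.63) and miR-199a-5p (-1.40). Over all miRNAs measured in both windows 7.59% were at least 2-fold lower. With normexp 1 of the 10 was, and with the 75th percentile over all probes 3 were. The brightest entry, miR-22, went from 848 to 1140 before scaling.

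**Figure D4:**
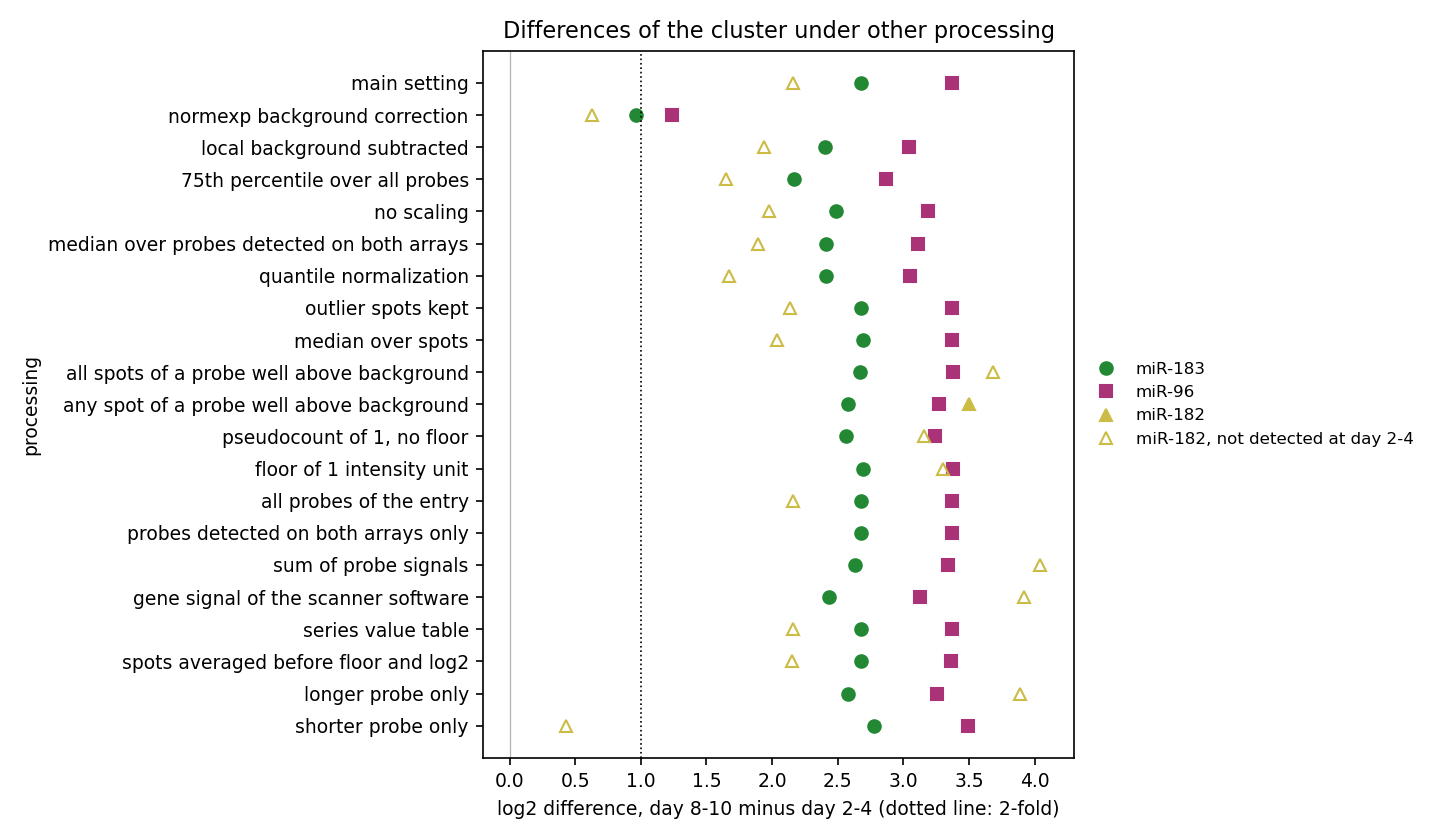
Log2 difference (day 8-10 minus day 2-4) of miR-183 (green circles), miR-96 (purple squares) and miR-182 (yellow triangles) in the main setting and under 20 other processing choices, 1 per row; open triangles mark settings in which miR-182 was not detected at day 2-4, and the dotted line marks 2-fold. With normexp the values were 0.96, 1.24 and 0.63; miR-182 ran from 0.43 on the shorter probe to 4.04 with summed probe signals.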

How the data were processed

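The authors deposited linear spot intensities. Agilent Feature Extraction 9.5.3.1 had made them, per the file headers. The processed intensity has no normalization between arrays and can be negative. The deposited series value table repeats that intensity, equal at 24986 of 24986 features (relative tolerance 1e-06). Other deposited columns used were raw spot and local background intensities, the gene signal of the software and its flags (0 or 1, other values of no unit).

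Control spots, viral probes and outlier spots were left out. Scaling used the 75th percentile of each array (108 and 95.2 intensity units), taken over 279 probes that both arrays detected. Spots dimmer than the lowest detected probe of their array (4.86 and 5.55 before scaling) were raised to its signal. Spots were then log2 transformed and averaged per probe, then over a miRNA's probes detected on at least 1 array. A miRNA was counted when it was detected on both arrays, at least 2-fold different and different by more than 2 spot SE. No spot was saturated. The number of arrays limits the precision. normexp was run with limma 3.58.1, and the calculation was tested on simulated data. No statistical test was possible.

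The members, the lists of miRNAs and clusters, and the rule for named miRNAs (the members, the 5 nearest differences, and the detected members of the Foxo1, brown fat and epithelial lists) were chosen with earlier results of these data known. Members were matched to the 5p mature forms of RefSeq, and miR-183* to the 3p form, by name and by the spacing of the positions.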

Additional observations from a re-analysis of the deposited data

How the results depend on the processing

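Under 17 other processing settings and 3 more chosen after seeing the data (spots averaged before the floor, longer probe only, shorter probe only), each log2 difference of miR-96, miR-183 and miR-182 stayed above 0. miR-96 ran from 1.24 (normexp) to 3.49 and miR-183 from 0.96 (normexp, below 2-fold) to 2.78. miR-182, at 2.16 in the main setting, was 0.63 with normexp and 0.43 on the shorter probe only. It was higher where the shorter probe weighed less or no floor near the limit was set: 3.68 when all spots of a probe had to be well above background, 3.50 when any spot sufficed (detected on both arrays), 3.16 with a pseudocount of 1, 3.30 with a floor of 1 intensity unit, 4.04 with summed probes, 3.92 with the software's gene signal and 3.89 on the longer probe only. Probes detected on both arrays only gave no value for miR-182.

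The counts of miRNAs at least 2-fold higher and lower, 23 and 11, became 5 and 5 with normexp and 10 and 29 with the 75th percentile over all probes. The count lower was 19 (with 16 higher) with median scaling, 17 (with 17 higher) with quantile normalization, 18 with any spot sufficing and 18 with the gene signal. For 26 single probes and other named miRNAs, 387 of 452 values kept their call and moved by less than 1.5-fold, 24 lost the call of a 2-fold difference, 5 gained it and 36 moved by more with no change of call. The sign turned in 17 of the values, all of differences under 2-fold in the main setting: in miR-455 (to as low as -1.39), miR-155, miR-223, miR-27a, miR-34a and the shorter probe of miR-182 (to -0.08). No paired analysis was possible because each window has 1 array. The signals of miR-182 at day 2-4 and of miR-183* lie at or below the detection limit, which the spots of 1 array cannot resolve further.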
